A study of Mus musculus with 5 samples.

Results

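The genes described here are the Wnt ligands and Frizzled receptors of the mouse, together with the co-receptors Lrp5 and Lrp6, the alternative receptors Ror1, Ror2 and Ryk, the ligand processing genes Porcn and Wls, and the R-spondins Rspo1 to Rspo4. Members were taken by gene symbol, and 40 of the 24527 genes in the count table matched. They comprise 19 ligands, 10 Frizzled receptors, 5 co-receptors and alternative receptors, 2 processing genes and 4 R-spondins. Expression was measured by RNA-seq of ribosomal RNA-depleted total RNA in prostate tumors of TripleTg mice, from 3 castrated and 2 intact animals with 1 library per mouse. All 5 animals carried the same alleles: hHGFtg, which expresses human HGF broadly, and H11hMET/+ and Ctnnb1 L(Ex3)/+, which give human MET and a β-catenin stabilized by loss of exon 3 once recombined by PB-Cre4, a Cre driven by the probasin promoter in prostate epithelium. The castrated mice were castrated at 4 months of age, and both groups were analysed at 8 months, on a mixed C57BL/6 and C3H SCID background, using tumor tissue checked under the microscope. Stabilized β-catenin was therefore present in castrated and intact tumors alike, and the comparison addresses the genes that make and receive Wnt signals on top of it after androgen withdrawal.

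Wnt proteins are lipid-modified secreted ligands. Porcn attaches the lipid and Wls carries the ligand to the cell surface, where it binds a Frizzled receptor either with LRP5 or LRP6, which stabilizes β-catenin, or with ROR1, ROR2 or RYK, which signal largely without it. R-spondins are secreted agonists that, through LGR receptors, remove the ubiquitin ligases ZNRF3 and RNF43 and so keep Frizzled and LRP proteins on the surface; in many tissues R-spondins and several Wnts come from stromal cells and act on the neighbouring epithelium.

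Total counts were 28015507, 18951782 and 20492061 in castrated samples 1, 2 and 3, and 21560355 and 22853501 in intact samples 1 and 2. The 40 members took 0.192%, 0.173% and 0.170% of these counts in the castrated samples and 0.181% and 0.153% in the intact samples. Values below are CPM, which are counts relative to library size scaled by edgeR's trimmed mean of M values (TMM) factors, or, where genes are set against each other, TPM, which also divides by the deposited gene length. A count of 3 corresponded to 0.105 to 0.161 CPM. The libraries did not sort by group alone. The differences between groups given below rest on the sample labels and dissection as given, which were not checked here. Castrated sample 1 correlated best with intact sample 1 (Pearson r = 0.933 over log CPM of the genes tested), above its r of 0.922 and 0.897 with the other castrated samples, and the intact samples reached 0.861 with each other. Intact sample 2 stood apart in Tgm4, a secretory transglutaminase of the prostate, which was at 1343 CPM there and at most 0.418 CPM in the other libraries. Other genes of the prostate secretory list went both ways. Ceacam10 and Fkbp5 were lowest in intact sample 2, at 4.17 and 17.2 CPM, and Azgp1 was highest in castrated sample 3, at 88.5 CPM. Pbsn, the probasin gene itself, reached 5.19 CPM in intact sample 2 and at most 0.453 CPM in the others. Spink1 and Sbp also had their highest counts in intact sample 2, at 6 and 7, and Msmb had no count in any library. The filter used for testing, above 1 CPM in at least 2 samples, removed Tgm4 and Pbsn, so a tally of tested genes leaves them out. Epithelial keratins were abundant throughout, with Krt18 between 628 and 1109 CPM.

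No member passed edgeR's quasi-likelihood test between castrated and intact tumors, while Rspo3 and Rspo1 passed with DESeq2 and Rspo3 with edgeR's likelihood ratio test. Of the 40 members, 31 exceeded 1 CPM in at least 2 samples and were tested with the 14612 genes that did so. By the quasi-likelihood test of edgeR, with p-values adjusted after Benjamini and Hochberg (BH), 0 of these 14612 genes (0%) had an adjusted p under 0.05 with an absolute log2 fold change above 1, and adjusted p-values of the members ran from 0.289, which was also the smallest of any gene, to 0.950. At an unadjusted p under 0.05 the same test had 2195 genes, 15.0% of those tested. At the adjusted threshold DESeq2 called 989 of the 14612 genes, against 2 of the 31 members, Rspo3 and Rspo1. The likelihood ratio test of edgeR called 369 of the 14612 genes, against 1 of the 31 members, Rspo3. With both tests, members were thus called at about the rate of all genes tested. Among the members, 6 were at an unadjusted p under 0.05 in the quasi-likelihood test, all 6 with higher mean in castrated tumors (19.4% of 31, against 8.74% of all genes tested in that direction), and 0 with lower mean (against 6.28%). The 6 were Rspo3, Rspo1, Fzd2, Fzd4, Wnt10a and Wnt9a. The count and its direction depended on the libraries. It was 3 without castrated sample 3 (3 higher, 0 lower), 9 without castrated sample 1 (8 higher, 1 lower), 5 without castrated sample 2 (4 higher, 1 lower), 8 without intact sample 1 (5 higher, 3 lower) and 9 without intact sample 2 (4 higher, 5 lower). Without 1 of the intact samples, the spread came from the castrated samples alone and the lone intact sample was assumed to vary like them. All-gene counts of these fits are given only with an absolute log2 fold change above 1 as a further limit. They were 1408 higher and 536 lower without castrated sample 1, 646 and 247 without castrated sample 2, and 582 and 285 without castrated sample 3. Over all genes tested, those at an unadjusted p under 0.05 with an absolute log2 fold change above 1 were 1120 higher and 476 lower with all libraries, 1588 and 982 without intact sample 1, and 915 and 577 without intact sample 2.

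By CPM level alone, all castrated samples lay above both intact samples for 7 tested members (22.6%, against 17.0% of all genes tested), namely these 6 and Ror1. All castrated samples lay below both intact samples for Wnt7b and Porcn, 2 members (6.45%, against 16.2%). The fitted mean was higher in castrated tumors for 18 of 31 members (58.1%, against 47.9% of all genes tested), and the median log2 fold change was 0.31 over the members and -0.03 over all genes. Wnt2b, counted among the 18, passed the filter through castrated samples 2 and 3 alone, so its direction carries no weight. Under a filter of 1 CPM in at least 3 samples, which Wnt2b did not pass, 17 of 30 members had the higher mean. By family, 8 of 13 ligands tested (Wnt2b included), 6 of 9 Frizzled receptors, 2 of 5 co-receptors and alternative receptors, 0 of 2 processing genes and 2 of 2 R-spondins had the higher mean in castrated tumors.

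**Figure D1:**
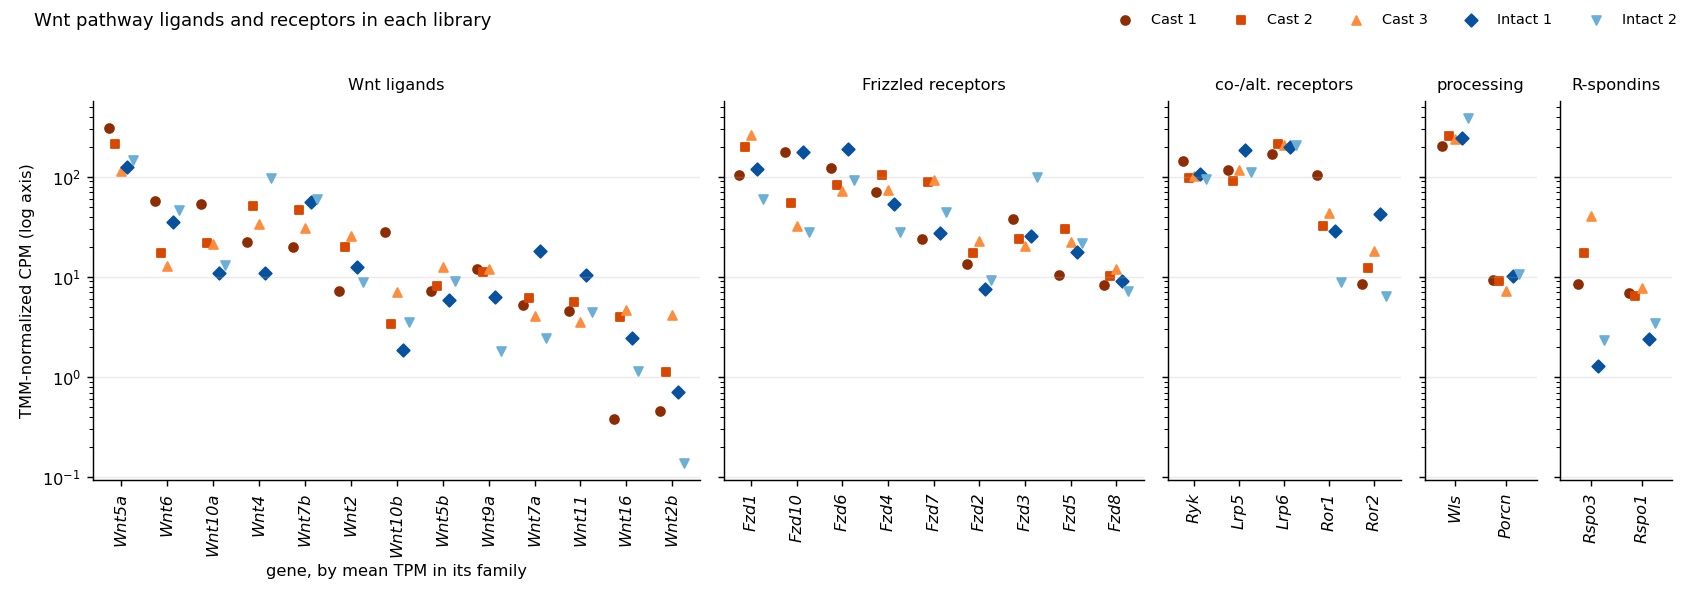
TMM-normalized CPM (log axis) of the 31 tested members in each library, grouped by family and ordered by mean TPM; orange and brown points are castrated (Cast) samples 1 to 3, blue points are intact samples 1 and 2, with 1 point per mouse. Rspo3 shows a wide gap between groups, from 8.47 CPM in the lowest castrated sample to 2.36 CPM in the higher intact sample. Fzd10 spread widely inside both groups, and Wnt4 between the intact samples.

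**Figure D2:**
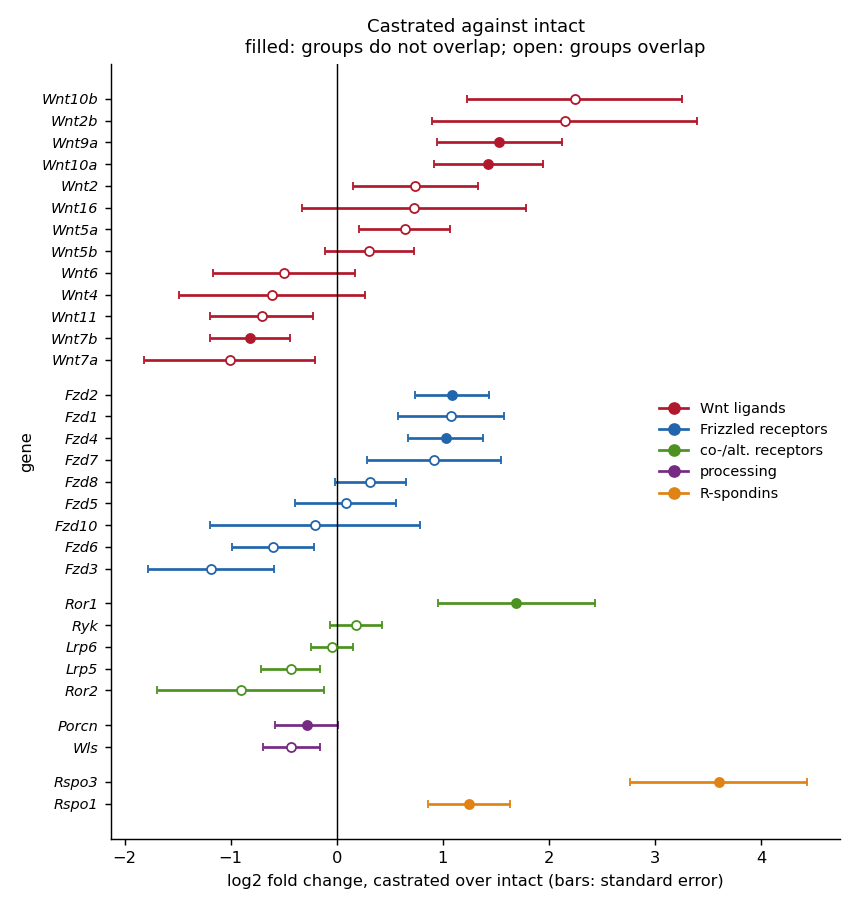
Log2 fold change of castrated over intact tumors with its standard error for the 31 tested members, from edgeR's quasi-likelihood fit on 3 castrated and 2 intact samples; filled points mark the 9 members whose groups do not overlap. Rspo3 lies farthest from 0, at 3.60, and every member had an adjusted p of 0.289 or more by the edgeR quasi-likelihood test (BH).

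The 2 tested R-spondins, the secreted agonists, showed the clearest separation of the groups. Rspo3 was at 8.47, 17.5 and 40.5 CPM in castrated samples 1, 2 and 3 (counts of 243, 326 and 842) and at 1.30 and 2.36 CPM in intact samples 1 and 2 (counts of 29 and 51). Each castrated tumor exceeded both intact tumors, and the castrated values also differed widely from each other. The means were 22.2 ± 16.5 CPM (SD, n = 3) and 1.83 ± 0.753 CPM (SD, n = 2), a fitted 12.1-fold difference with a log2 fold change of 3.60 ± 0.83 (SE; edgeR quasi-likelihood, BH-adjusted p = 0.289). Leaving out each library in turn gave log2 fold changes of 2.83 to 4.05, and DESeq2 gave 3.61 with an adjusted p of 0.000377. Rspo1 was at 6.87, 6.38 and 7.70 CPM in castrated samples and at 2.42 and 3.48 CPM in intact samples. Here the castrated tumors were close together, and all exceeded the intact tumors, by a log2 fold change of 1.25 ± 0.38 (SE; edgeR quasi-likelihood, BH-adjusted p = 0.299). DESeq2 gave Rspo1 an adjusted p of 0.0173. Rspo2, with at most 0.0963 CPM, and Rspo4, with 0.193 to 0.871 CPM, did not reach the filter. Summed over the 4 genes, R-spondin TPM was 18.0, 26.3 and 49.9 in castrated and 5.31 and 5.88 in intact samples, and Rspo3 supplied 46.2%, 65.9% and 79.7% of it in castrated against 25.3% and 31.2% in intact samples. In bulk tissue, more cells of a type and more RNA per cell cannot be told apart.

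Among the ligands, Wnt10a and Wnt9a were higher in every castrated tumor and Wnt7b was lower in every one. Wnt10a, a ligand that activates β-catenin signaling in skin and tooth, was at 54.1, 21.7 and 21.5 CPM in castrated samples and at 11.0 and 13.2 CPM in intact samples. Castrated sample 1 stood well above the others: the log2 fold change was 1.43 ± 0.51 (SE; edgeR quasi-likelihood, BH-adjusted p = 0.316) over all libraries and 0.85 without that sample. Wnt9a, which takes part in joint and liver development, was at 12.0, 11.3 and 11.9 CPM in castrated samples and at 6.31 and 1.81 CPM in intact samples. The castrated values were nearly equal, so that the spread lay between the intact tumors, and the log2 fold change of 1.53 ± 0.59 (SE; edgeR quasi-likelihood, BH-adjusted p = 0.328) became 2.72 without intact sample 1 and 0.86 without intact sample 2. Wnt7b, an epithelial ligand in lung and kidney, was at 19.8, 46.8 and 31.0 CPM in castrated samples against 55.5 and 59.8 CPM in intact samples. The groups did not overlap, although in TPM castrated sample 2 and intact sample 2 were nearly equal, at 25.1 and 25.2, with a log2 fold change of -0.82 ± 0.38 (SE; edgeR quasi-likelihood, BH-adjusted p = 0.372). Wnt7b overlaps the locus AU022754 on the other strand, which had 1391 counts in intact sample 2 and 15 to 68 in the other libraries. The strand setting of the counting is not given in the sources used here, so reads of the overlapping stretch cannot be assigned to either.

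By the mean over the 5 samples, the 2 most abundant ligands per length were Wnt5a and Wnt6. They did not separate the groups, unlike Wnt10a, the next in mean level with 28.7 TPM. Wnt5a, the main ligand of signaling without β-catenin, led with a mean of 66.0 TPM over the 5 samples. It was at 308, 212 and 115 CPM in castrated and 126 and 146 CPM in intact samples, so that castrated sample 3 lay below both intact tumors while the other castrated tumors lay above them (log2 fold change 0.64 ± 0.43 SE; edgeR quasi-likelihood, BH-adjusted p = 0.514). Wnt6 had the second highest mean, 36.8 TPM, but was second in intact sample 1 alone. In castrated samples 2 and 3, at 19.9 and 14.7 TPM, it lay below Wnt2, Wnt4, Wnt7b and Wnt10a. Wnt6 was at 57.0, 17.4 and 12.9 CPM in castrated and 35.4 and 46.6 CPM in intact samples. Castrated sample 1 was the highest of the 5 and the other castrated tumors the lowest, and the log2 fold change of -0.49 ± 0.67 (SE; edgeR quasi-likelihood, BH-adjusted p = 0.756) became -1.43 without castrated sample 1.

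Wnt6 and Wnt10a are neighbours on chromosome 1 of mm10, on the same strand, with 6699 bases and no other gene of the table between them. They did not share a pattern across libraries: both peaked in castrated sample 1, but in castrated samples 2 and 3 Wnt10a was above both intact tumors and Wnt6 below both. Another 3 ligand pairs are adjacent and divergent, namely Wnt10b and Wnt1 on chromosome 15 (11706 bases apart), Wnt3a and Wnt9a on chromosome 11 (16178 bases apart) and Wnt9b and Wnt3 on chromosome 11 (24353 bases apart). In each of the first 2, only 1 partner was expressed above the filter. Wnt10b was at 27.9, 3.38 and 7.03 CPM in castrated and 1.88 and 3.52 CPM in intact samples, while Wnt1 had at most 7 counts in any library. The excess of Wnt10b came mainly from castrated sample 1, with a log2 fold change of 2.24 ± 1.02 (SE; edgeR quasi-likelihood, BH-adjusted p = 0.368) over all libraries and 0.96 without it. Wnt3a, the partner of Wnt9a, had at most 5 counts in any library, Wnt3 at most 5 and Wnt9b at most 15.

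The other 7 tested ligands had overlapping groups. Wnt4, a ligand of urogenital development, was at 22.6, 50.9 and 33.6 CPM in castrated samples and at 10.8 and 98.4 CPM in intact samples, so that the intact tumors formed both extremes. Wnt2, a stromal ligand in several organs, was at 7.22, 20.0 and 25.9 CPM in castrated and 12.4 and 8.80 CPM in intact samples. Wnt7a, the closest relative of Wnt7b, was at 5.30, 6.11 and 4.04 CPM in castrated and 18.4 and 2.46 CPM in intact samples, and again the intact tumors were the extremes. Wnt5b, Wnt11, Wnt16 and Wnt2b ranged from 0.139 to 12.5 CPM over the 5 libraries, and Wnt5b overlaps Fbxl14 on the other strand. Of the 6 untested ligands, Wnt8a had no count in any library, which allows up to 0.105 to 0.161 CPM per library for counting error only. Wnt8b reached 1.70 CPM in intact sample 1 and at most 0.488 CPM elsewhere, and the remaining 4 stayed under 0.7 CPM. Summed ligand TPM was 331, 239 and 192 in castrated and 199 and 195 in intact samples (254 ± 70.6, SD, n = 3, and 197 ± 2.76, SD, n = 2). Castrated sample 3 lay below both intact tumors, and the groups overlapped.

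Among the receptors, Fzd2 and Fzd4 were higher in every castrated tumor. Fzd2, a receptor for Wnt5a and other ligands, was at 13.4, 17.5 and 22.8 CPM in castrated samples and at 7.66 and 9.27 CPM in intact samples (log2 fold change 1.09 ± 0.35 SE; edgeR quasi-likelihood, BH-adjusted p = 0.301). The separation was of similar size whichever library was left out, with log2 fold changes of 0.88 to 1.26. Fzd4, the receptor of norrin in blood vessels and of several Wnts, was at 70.7, 104 and 73.8 CPM in castrated samples and at 53.2 and 28.4 CPM in intact samples (log2 fold change 1.03 ± 0.35 SE; edgeR quasi-likelihood, BH-adjusted p = 0.309). Intact sample 2 supplied much of that difference, which was 1.57 without intact sample 1 and 0.60 without intact sample 2.

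Fzd1, Fzd10 and Fzd6 were the most abundant Frizzled transcripts per length, at mean levels of 79.5, 74.5 and 63.1 TPM, and none separated the groups. Fzd1 was at 105, 198 and 263 CPM in castrated and 120 and 59.5 CPM in intact samples, and castrated sample 1 lay between the intact tumors (log2 fold change 1.08 ± 0.50 SE; edgeR quasi-likelihood, BH-adjusted p = 0.378). The log2 fold change of Fzd1 was 1.69 without intact sample 1 and 0.62 without intact sample 2. Fzd10, a receptor with a narrow normal expression, split the libraries across the groups: it was at 179 CPM in castrated sample 1 and 176 CPM in intact sample 1, but at 54.8, 32.1 and 28.2 CPM in castrated samples 2 and 3 and intact sample 2. Its log2 fold change of -0.21 ± 0.99 (SE; edgeR quasi-likelihood, BH-adjusted p = 0.939) ran from -1.23 to 1.67 when single libraries were left out, so its direction is not set by these data. Fzd6, which acts in planar cell polarity, was at 124, 83.6 and 72.6 CPM in castrated and 191 and 92.6 CPM in intact samples. Its log2 fold change of -0.60 ± 0.39 (SE; edgeR quasi-likelihood, BH-adjusted p = 0.506) was 0.03 without intact sample 1, the sample with the highest value.

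The remaining 4 tested Frizzled receptors overlapped between groups. Fzd7 was at 23.7, 87.8 and 92.5 CPM in castrated and 27.7 and 44.6 CPM in intact samples, with castrated sample 1 the lowest of the 5. Fzd3 was at 98.6 CPM in intact sample 2 and at 20.6 to 37.6 CPM in the other libraries. Fzd5 ranged from 10.5 to 29.9 CPM and Fzd8 from 7.23 to 12.0 CPM. Fzd9 did not reach the filter, at 3.94 CPM in intact sample 1 and under 1 CPM elsewhere. Summed Frizzled TPM was 350, 343 and 334 in castrated samples and 405 and 145 in intact samples (342 ± 7.79, SD, n = 3, and 275 ± 184, SD, n = 2). The castrated sums were nearly equal and lay between the intact ones, and the log2 ratio of means of 0.31 turned to -0.24 without intact sample 2.

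The near-equal sums of the castrated samples were made of different receptor mixtures. Fzd1 made up 16.1%, 31.3% and 42.2% of summed Frizzled TPM in castrated samples 1, 2 and 3, against 16.7% and 17.4% in the intact samples. Fzd10 made up 40.2%, 12.7% and 7.5% in castrated and 36.0% and 12.1% in intact samples. Castrated sample 1 and intact sample 1 thus carried Fzd10 as the largest Frizzled share, castrated samples 2 and 3 carried Fzd1, and intact sample 2 carried Fzd6, with 28.7%. Among ligands, Wnt5a held the largest share in all castrated samples and intact sample 1, with 34.8%, 33.3% and 22.4% in castrated and 24.9% in intact sample 1, and Wnt4 held the largest share, 24.6%, in intact sample 2. Wnt10a held 19.7%, 11.0% and 13.4% of ligand TPM in castrated samples against 7.0% and 6.4% in intact samples, without overlap.

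**Figure D3:**
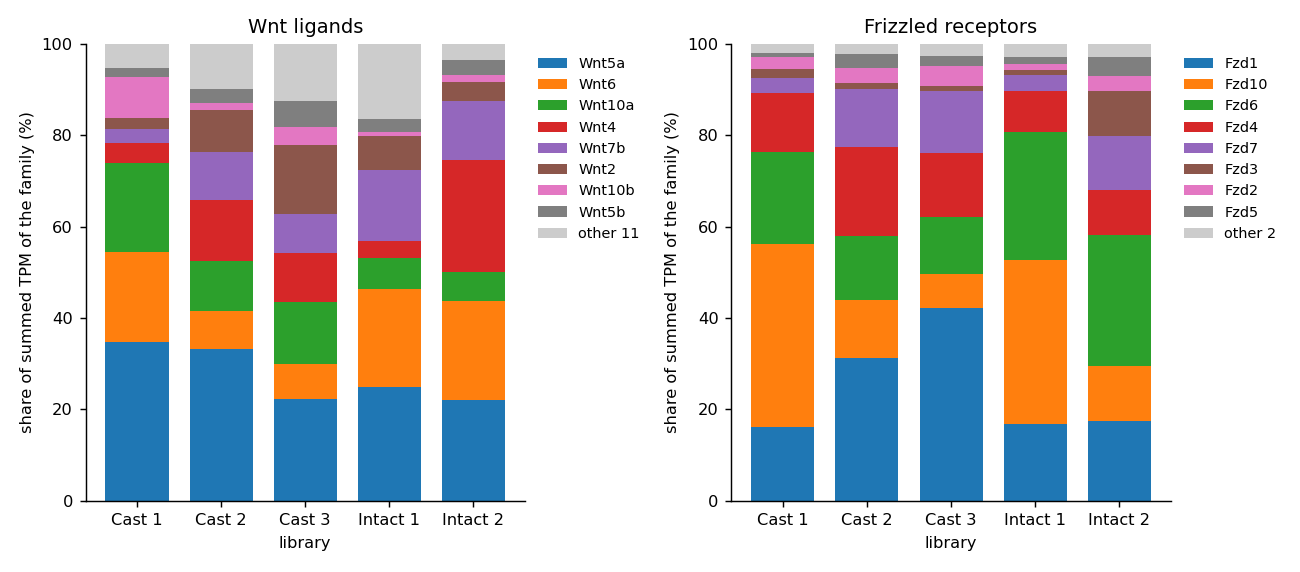
Share (%) of the summed TPM of each family taken by its 8 leading genes and by the remaining genes together, for the 19 ligands (left) and 10 Frizzled receptors (right), with 1 bar per library. Fzd10 takes 40.2% in castrated sample 1 and 36.0% in intact sample 1, while Fzd1 takes 42.2% in castrated sample 3.

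The groups overlapped for both β-catenin co-receptors. Lrp6 was at 169, 214 and 206 CPM in castrated and 200 and 206 CPM in intact samples, with a log2 fold change of -0.05 ± 0.20 (SE; edgeR quasi-likelihood, BH-adjusted p = 0.928) that was 0.05 without castrated sample 1. Lrp5 was at 118, 91.4 and 117 CPM in castrated and 184 and 111 CPM in intact samples (log2 fold change -0.43 ± 0.28 SE; edgeR quasi-likelihood, BH-adjusted p = 0.501), and its log2 fold change was -0.0064 without intact sample 1 and -0.79 without intact sample 2. Among the alternative receptors, Ryk was the most abundant per length, with a mean of 76.7 TPM, and was at 145, 96.9 and 101 CPM in castrated and 107 and 95.0 CPM in intact samples (log2 fold change 0.18 ± 0.24 SE; edgeR quasi-likelihood, BH-adjusted p = 0.754, and -0.02 without castrated sample 1). The 2 tyrosine kinase-like receptors for Wnt5a showed different patterns. Ror1 was at 105, 32.0 and 43.3 CPM in castrated and 28.5 and 8.85 CPM in intact samples. All castrated tumors exceeded both intact tumors, castrated sample 2 by a small margin over intact sample 1, and the log2 fold change of 1.69 ± 0.74 (SE; edgeR quasi-likelihood, BH-adjusted p = 0.358) became 2.79 without intact sample 1 and 1.02 without castrated sample 1. Ror2 was at 8.40, 12.3 and 18.1 CPM in castrated and 42.3 and 6.44 CPM in intact samples, with the intact tumors as both extremes.

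The ligand processing genes had lower means in castrated tumors. Porcn was at 9.31, 9.16 and 7.22 CPM in castrated and 10.2 and 10.7 CPM in intact samples, without overlap on this scale but with overlap in TPM (7.97, 7.90 and 6.17 against 9.19 and 7.25), and with a log2 fold change of -0.28 ± 0.30 (SE; edgeR quasi-likelihood, BH-adjusted p = 0.685). Wls had the highest mean of all 40 members per length, 103 TPM, but led in intact sample 2 alone. Fzd10 exceeded it per length in castrated sample 1 and intact sample 1, and Fzd1 in castrated samples 2 and 3. Wls was at 204, 256 and 239 CPM in castrated and 244 and 385 CPM in intact samples. The difference rested on intact sample 2, with a log2 fold change of -0.43 ± 0.27 (SE; edgeR quasi-likelihood, BH-adjusted p = 0.488) over all libraries and -0.10 without it.

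RefSeq promoter windows of GRCm38.p6 were at hand for 27 of the 40 members, and the 250 bases before the start site were searched on both strands for 3 motifs. The TCF/LEF motif ATCAAAG, read by the DNA partners of β-catenin, was present in 2 of 27 members (Wnt11 and Wnt5b) and in 3.21% of all 32851 windows. AGAACA, the core of the androgen receptor element, was in 2 of 27 (Wnt5b and Wnt8b) and in 16.1% of all windows, and the SP1 GC box GGGCGG in 22 of 27 and in 32.7% of all windows. A member was counted when any of its windows held the motif, while the shares of all windows count single windows, so the 2 measures are not alike. Of the 9 tested members whose groups did not overlap, the windows of Fzd4, Ror1, Rspo1 and Wnt9a were at hand and are printed here because all 4 were higher in every castrated tumor. They are written 5′ to 3′ with GC boxes in capitals on either strand, some of them overlapping.
Fzd4, chr7:89404116-89404365, + strand: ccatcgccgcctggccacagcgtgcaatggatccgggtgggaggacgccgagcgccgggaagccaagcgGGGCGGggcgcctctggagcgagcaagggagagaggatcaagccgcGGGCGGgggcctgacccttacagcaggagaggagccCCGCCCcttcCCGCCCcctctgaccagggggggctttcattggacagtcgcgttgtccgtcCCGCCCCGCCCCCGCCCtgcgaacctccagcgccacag
Ror1, chr4:100095541-100095790, + strand: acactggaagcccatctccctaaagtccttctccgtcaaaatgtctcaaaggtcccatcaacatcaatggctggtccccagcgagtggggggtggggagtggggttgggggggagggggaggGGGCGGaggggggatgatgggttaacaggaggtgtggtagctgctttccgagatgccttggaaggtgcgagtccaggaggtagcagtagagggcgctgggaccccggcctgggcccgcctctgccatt
Rspo1, chr4:124986180-124986429, + strand: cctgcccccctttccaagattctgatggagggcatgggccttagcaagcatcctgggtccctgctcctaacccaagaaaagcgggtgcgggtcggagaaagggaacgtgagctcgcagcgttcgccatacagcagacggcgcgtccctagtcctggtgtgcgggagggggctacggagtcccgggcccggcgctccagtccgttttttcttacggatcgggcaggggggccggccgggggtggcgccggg
Wnt9a, chr11:59306680-59306929, + strand: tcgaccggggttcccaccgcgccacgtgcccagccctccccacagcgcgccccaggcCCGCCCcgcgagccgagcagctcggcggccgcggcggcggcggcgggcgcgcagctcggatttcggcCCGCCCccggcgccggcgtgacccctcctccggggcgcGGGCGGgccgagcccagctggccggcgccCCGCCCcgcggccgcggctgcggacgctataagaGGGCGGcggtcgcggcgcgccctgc
Fzd4 holds 7 GC boxes, Wnt9a 5, Ror1 1 and Rspo1 none, at 72.8%, 84.4%, 62.4% and 66.8% G and C. None of the 4 windows holds ATCAAAG or AGAACA. These matches describe the letters of the windows and say nothing of binding.

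The R-spondin receptors and the ligases they act on had differing directions. Among 16 modulators of Wnt receptors, of which 14 were tested, 6 had the higher mean in castrated tumors (against 47.9% of all genes tested). In each direction 3 were at an unadjusted p under 0.05 (edgeR quasi-likelihood, against 8.74% of all genes tested higher and 6.28% lower). Those with higher mean were Reck and Adgra2, cofactors of WNT7 signaling, and the glypican Gpc6, and those with lower mean were Lgr5, Lgr6 and Tspan12, a cofactor of FZD4. Lgr4, the most abundant LGR receptor per length in the castrated tumors, was at 82.4, 148 and 189 CPM in castrated and 52.6 and 94.4 CPM in intact samples. In intact samples 1 and 2, Lgr5 was the higher per length, at 38.7 and 64.4 TPM against 25.8 and 34.8 TPM for Lgr4. Lgr5, both a receptor and a β-catenin target, was at 60.4, 38.2 and 29.7 CPM in castrated and 73.5 and 163 CPM in intact samples, without overlap. Lgr6 was at 7.22, 2.04 and 1.88 CPM in castrated and 7.92 and 56.0 CPM in intact samples, where intact sample 2 set most of the difference. Znrf3 was at 223, 93.9 and 57.0 CPM in castrated and 191 and 207 CPM in intact samples, and Rnf43 at 222, 113 and 92.0 CPM against 271 and 203 CPM, so that castrated sample 1 lay above both intact tumors for Znrf3 and between them for Rnf43, while the other castrated samples were the lowest for both. These LGR, ligase and cofactor genes were picked out after their values were seen.

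Of 10 β-catenin feedback targets, 1 had the higher mean in castrated tumors, against 47.9% of all genes tested, and 9 had the lower mean, with 1 (Lgr5) at an unadjusted p under 0.05 (against 6.28%) and a median log2 fold change of -0.69. The most abundant, Apcdd1, was at 1539, 494 and 216 CPM in castrated and 1014 and 766 CPM in intact samples, and Axin2, the classical target, at 342, 144 and 120 CPM against 333 and 585 CPM. Castrated sample 1 was the highest of the 5 for Apcdd1 and lay between the intact tumors for Axin2, and the other castrated samples were below both intact tumors for both genes. Of 18 genes of the canonical core, 7 had the higher mean (against 47.9% of all genes tested) and 11 the lower. At an unadjusted p under 0.05 there were 0, against 15.0% of all genes tested (edgeR quasi-likelihood, with adjusted p-values of 0.347 to 0.959). All castrated samples lay below both intact samples for 4, Apc, Gsk3b, Dvl3 and Bcl9 (against 16.2%), and above both for 0 (against 17.0%). Ctnnb1 itself was at 2899, 1333 and 1175 CPM in castrated and 1810 and 763 CPM in intact samples. Of 13 secreted inhibitors, 10 were tested and 6 had the higher mean (against 47.9% of all genes tested). Sfrp1 and Sfrp4, decoys for Wnt proteins, were at an unadjusted p under 0.05 (against 8.74% of all genes tested), and Sfrp1, the more abundant, was at 777, 581 and 737 CPM in castrated against 388 and 361 CPM in intact samples. Of 12 planar polarity genes, 6 had the higher mean, a share near the 47.9% of all genes tested. Daam2 alone was at an unadjusted p under 0.05 with the higher mean (edgeR quasi-likelihood), a share near the 8.74% of all genes tested. The feedback, inhibitor and modulator lists share Notum, Lgr5, Znrf3 and Rnf43, and no gene of these lists passed the adjusted threshold of the quasi-likelihood test.

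Some lists of cell type markers also differed in level between the groups, although no marker gene passed the adjusted threshold (edgeR quasi-likelihood, smallest BH-adjusted p = 0.289). Of 11 fibroblast genes, 10 had the higher mean in castrated tumors (against 47.9% of all genes tested) and 8 had all castrated samples above both intact samples (against 17.0%). Both shares are the background also for the marker lists that follow. Summed TPM of the fibroblast genes was 3581, 5762 and 8063 in castrated and 2608 and 1407 in intact samples. The top fibroblast gene, Dcn, was at 997, 2660 and 3780 CPM in castrated and 487 and 493 CPM in intact samples. That order of the castrated libraries held for 6 of the 11 fibroblast genes and not for Col1a1, Col1a2, Col3a1, Pi16 and Thy1, with Col3a1 at 1215, 967 and 1054 CPM in castrated and 1211 and 818 CPM in intact samples. All 11 smooth muscle genes had the higher mean, 10 without overlap, with summed TPM of 479, 797 and 690 against 299 and 151 and Tagln the most abundant. Myocd, among the 10, passed the filter through castrated samples alone, so its direction and separation carry no weight. All 11 adipocyte genes had the higher mean, 6 without overlap, with summed TPM of 306, 2835 and 2065 against 217 and 307 and Fabp4 the most abundant. Castrated sample 1 lay between the intact tumors in that sum. The 6 were Adipoq, Plin1, Cidec, Retn, Cfd and Pck1, and these and Lep passed the filter through castrated samples alone. In castrated sample 1 some were near the floor, with 3 counts of Plin1 (against 2 and 0 in intact samples) and 2 of Retn (against 1 and 0). Their direction and separation therefore carry no weight in these counts. All 12 macrophage genes had the higher mean, 10 without overlap, led by Lyz2, with summed TPM of 5325, 15430 and 5807 against 2343 and 2723.

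Endothelial summed TPM was 724, 212 and 277 in castrated and 390 and 96.3 in intact samples, with Cldn5 the most abundant gene in castrated sample 1 only. Cldn5 alone supplied 424 of the 724 TPM in castrated sample 1, Cdh5 and Erg were highest in intact sample 1, and 7 of 9 genes had the higher mean in castrated tumors, 3 without overlap. The nerve and Schwann cell list was high in castrated sample 1 and intact sample 1, at 451 and 495 summed TPM, and at 232, 123 and 40.8 in the other libraries. Ngfr led it in all libraries but intact sample 2. Ngfr alone supplied 421 and 457 TPM of the first 2 sums, and Sox10, a defining Schwann cell gene, was at most 2.54 TPM in any library. Summed TPM of the T cell list was 24.67, 84.85 and 85.11 in castrated and 14.99 and 43.29 in intact samples. Of its 8 genes, 7 had the higher mean in castrated tumors, 1 without overlap. Cd5, among the 7, passed the filter through castrated samples alone, so its direction carries no weight. Epithelial summed TPM was 5341, 4806 and 5669 in castrated and 8356 and 3960 in intact samples, with 1 of 7 genes higher in mean in castrated tumors. The 6 basal genes summed to 514, 541 and 1080 against 275 and 843. Krt15 led them in castrated tumors, Itga6 in intact sample 1 and Krt5 in intact sample 2. Of these basal genes 2 had the higher and 4 the lower mean, with Krt15 higher and Itga6 lower without overlap. The 8 proliferation genes, led by Pcna, all had lower CPM in every castrated tumor than in both intact tumors (against 16.2% of all genes tested), although on the TPM scale Pcna overlapped, at 172 in castrated sample 2 and 144 in intact sample 2. Their summed TPM was 160, 224 and 198 against 339 and 273. Seminal vesicle genes had at most 74 counts, in intact sample 2. The part of these cell types in the Wnt gene values was not tested.

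**Figure D4:**
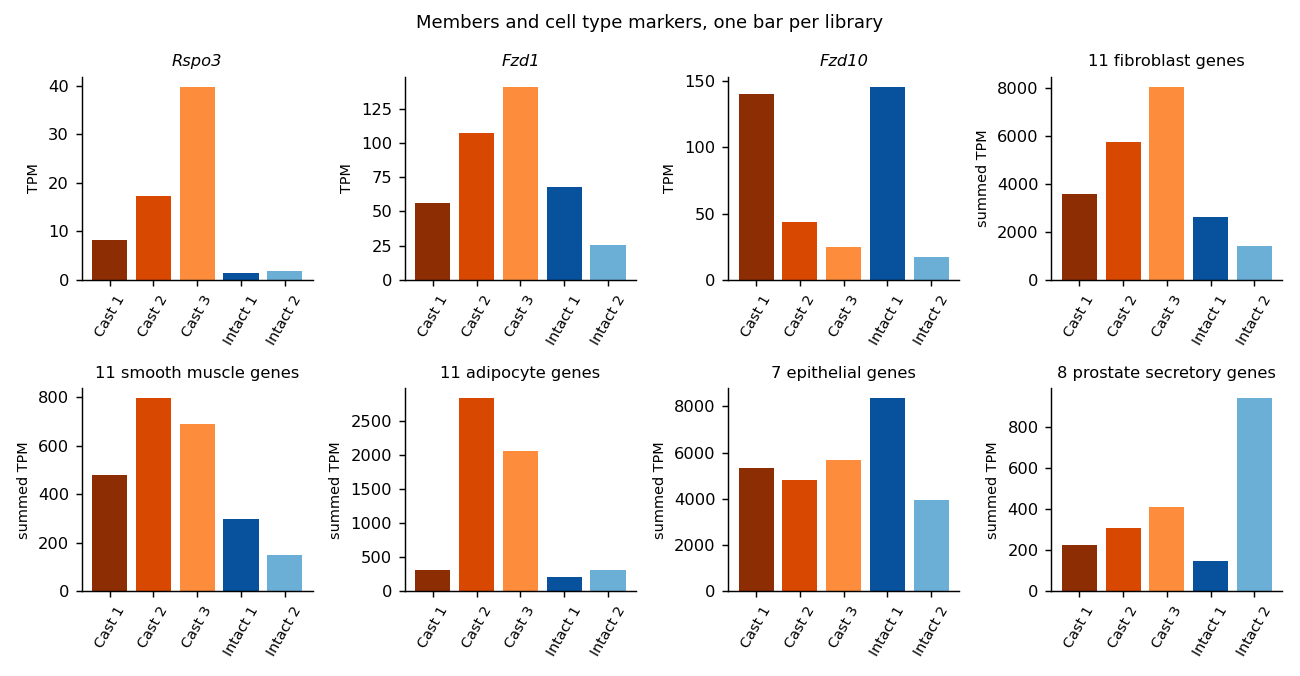
TPM of Rspo3, Fzd1 and Fzd10 and summed TPM of 5 marker lists, with 1 bar per library, castrated (Cast) samples in orange and brown and intact samples in blue; each panel has its own axis starting at 0. Summed fibroblast markers were 3581, 5762 and 8063 TPM in castrated samples and 2608 and 1407 TPM in intact samples, and the prostate secretory sum was highest in intact sample 2, at 940 TPM, of which Tgm4 alone supplied 907 TPM.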

How the data were processed

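Bulk RNA-seq of 3 castrated and 2 intact TripleTg tumors was analysed. The authors deposited raw read counts per gene from HTSeq 2.0.2, with gene lengths, made from STAR 2.7.9 alignments to mm10 after trimming (Trimmomatic 0.39). The strand setting is not given in the sources used here.

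Genes above 1 CPM in at least 2 samples were tested with edgeR 4.0.16 (TMM, glmQLFit, glmQLFTest, group only, R 4.3.3) over the whole table, with Benjamini-Hochberg adjustment over 14612 genes. A gene was called when its adjusted p fell below 0.05 and its log2 fold change exceeded 1 in size. The SE is the absolute log2 fold change over the square root of F. TPM used the deposited lengths. Common dispersion was 0.238. Values in every sample are given for tested members at an unadjusted p under 0.05, with groups that do not overlap, or among the 3 most abundant of their family per length. They are also given for tested neighbouring Wnt genes and for Wnt4, Wnt2, Wnt7a, Fzd7 and Ror2. Members below the filter are given by a range or a maximum. Listed genes outside the members are the most abundant of their list unless stated. A further prostate marker gene was left out of the lists and is not reported here. Members and lists were chosen with earlier results of these data known. Alternatives were DESeq2 1.42.0, limma 3.58.1 voom, other scalings and filters, a replicate block and leaving out each library.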

Additional observations from a re-analysis of the deposited data

How the results depend on the processing

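Of 19 members with full statistics, 15 kept their direction under all 14 alternatives. The others were Fzd10, at 0.49 with the replicate block and from -1.23 to 1.67 over the fits that leave out 1 library, Lrp6 (-0.10 to 0.052), Ryk (-0.022 to 0.29) and Fzd6 (-1.07 to 0.033). The count of all genes called was 0 in the quasi-likelihood test, 989 with DESeq2 (703 higher, 286 lower), 369 with the likelihood ratio test, and 0 to 1 when a library was left out. Rspo3 passed the adjusted threshold with the likelihood ratio test (adjusted p = 0.0102) and DESeq2, and Rspo1 with DESeq2. Genes at an unadjusted p under 0.05 with an absolute log2 fold change above 1 numbered 1596, 975 with the replicate block, and 867 to 2570 without single libraries. Members at an unadjusted p under 0.05 numbered 6, 2 with the replicate block (Rspo3 and Ror1), and 3 to 9 without single libraries. Tested members whose groups do not overlap numbered 9, and 10 to 20 without single libraries, since fewer samples overlap less. The share of all genes without overlap is not given for the fits without single libraries, so the counts of 10 to 20 have no background. The replicate number does not mark a shared animal, and the deviations of same-numbered samples correlated at 0.165 and -0.0372. Summed Frizzled TPM had a log2 ratio of 0.31, and 1.24 without intact sample 1. That of co-receptors and alternative receptors was 0.07, 0.57 without intact sample 1, -0.30 without intact sample 2 and -0.02 on TMM-scaled RPKM, and that of the processing genes -0.26 and -0.42 on TMM-scaled RPKM. The cause was not tested. The limma voom fit and the older quasi-likelihood fit were chosen after seeing the data.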
